A study of Mus musculus with 9 samples.

Results

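The 10 genes described here encode the stress-responsive chaperones of the cytosol and of mitochondria, and the transcription factor that switches them on. They were selected by symbol in the deposited kidney expression table, which lists 54532 genes. All 10 were found once each and all 10 reached the level required for testing. They comprise the factor Hsf1, the Hsp70 family members Hspa1a, Hspa1b and Hspa8, and their partners Hsp90aa1, Hsph1 and Dnajb1. The small heat shock protein gene Hspb1 and the mitochondrial chaperonin genes Hspd1 and Hspe1 complete the set.

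Messenger RNA was measured by sequencing kidney tissue of male c57BL/6j mice aged 4 months, with 3 samples in each of 3 groups. Ground controls (GC1 to GC3) had no treatment, unloaded mice (HU1 to HU3) were hindlimb-unloaded and given vehicle, and treated mice (PBA1 to PBA3) were hindlimb-unloaded and given 4-PBA, a chemical chaperone, by intraperitoneal injection of 100 mg per kg per day. Hindlimb unloading raises the hind limbs so that they bear no weight, and is a model of disuse and microgravity. The study asked how stress of the endoplasmic reticulum relates to kidney pathology in unloaded mice. Since ground controls received no injections, unloading and vehicle cannot be told apart in the comparison of unloaded mice with ground controls.

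In a resting cell, chaperones hold the factor HSF1 inactive. When misfolded proteins draw the chaperones away, HSF1 forms trimers and binds heat shock elements, which are inverted repeats of the letters GAA and TTC in the promoters of chaperone genes. Mitochondria fold imported proteins with their own chaperonin, a barrel of HSP60 subunits closed by an HSP10 lid. The kidney tubule is rich in mitochondria and relies on both systems.

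The libraries differed in ways that touch the results below. Recovered reads in genes ranged from 7595631 (HU2) to 15141784 (GC2) and reads outside the mitochondrial genome from 1568888 (HU2) to 12893802 (GC2). The latter limit the precision for nuclear genes and were fewest in HU2, HU1, PBA3 and HU3, in that order. The mitochondrial genome supplied 13.7% to 18.9% of reads in 4 libraries (GC1, GC2, PBA1 and PBA2) and 49.7% to 79.3% in the other 5 (GC3, PBA3 and all unloaded libraries). Proximal tubule markers, the main tubule cells of kidney, were present in every library, so the tissue label held. Their summed level was 1165 to 1511 FPKM in ground controls, 109 to 264 FPKM in unloaded mice and 344 to 1359 FPKM in 4-PBA-treated mice. Of those 10 markers, 7 fell in unloaded mice against ground controls (limma, adjusted p under 0.05), as did 4.90% of all genes tested. Markers of stroma summed to 16.0 to 45.7 FPKM in ground controls against 118 to 272 FPKM in unloaded mice. Of these 6 stroma markers, 1 (Pdgfra) rose by the same test, and 10.2% of all genes tested passed in either direction. In bulk tissue, fewer cells of a type and less RNA per cell cannot be told apart.

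The promoters show how far these genes share a regulatory sequence. RefSeq promoter windows of 300 bases (250 before and 50 after an annotated start, build GRCm38.p6) matched 7 of the 10 genes. Hspa8, Hsp90aa1 and Hsf1 had no match. A pair of adjoining heat shock element units is TTCNNGAA or GAANNTTC on either strand. It lay in a window of 6 of the 7 genes (all but Dnajb1). Of all 27025 genes with a window 17.0% hold one, as do 15.1% of all 32851 windows. A row of 3 units (TTCNNGAANNTTC or GAANNTTCNNGAA) occurred in Hsph1, Hspd1 and Hspe1, against 0.662% of all genes and 0.603% of all windows. A row of 4 units (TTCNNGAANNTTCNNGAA or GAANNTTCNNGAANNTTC) contains the pair and the triple. It occurred in windows of Hspd1 and Hspe1, which are 2 of the 8 genes among 27025 with such a match. These are matches of letters and not measured binding sites.

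The 4-unit match of Hspd1 and Hspe1 is one stretch, because both genes lie head to head on chromosome 1. It is shown as the longest match of the set and because the mitochondrial results turn on this gene pair. The 30 bases printed are read on the strand of Hspe1, and capitals mark the 4 units, whose first base is 89 bases before the Hspe1 start.
Hspe1 and Hspd1, chr1:55088053-55088082, plus strand: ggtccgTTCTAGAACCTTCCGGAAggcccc
The stretch also lies within an annotated Hspd1 exon.

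The 150 bases before the starts of Hspa1b and Hspa1a are shown because the measured ratio of this pair varied between libraries while their promoters are nearly the same. Each gene is a single exon. Capitals mark the pair of units GAAGATTC, whose first base is 104 bases before the start in both genes.
Hspa1b, chr17:34959239-34959388, minus strand: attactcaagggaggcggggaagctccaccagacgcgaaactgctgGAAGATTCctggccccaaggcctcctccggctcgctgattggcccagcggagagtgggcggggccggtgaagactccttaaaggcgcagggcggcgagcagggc
Hspa1a, chr17:34972157-34972306, minus strand: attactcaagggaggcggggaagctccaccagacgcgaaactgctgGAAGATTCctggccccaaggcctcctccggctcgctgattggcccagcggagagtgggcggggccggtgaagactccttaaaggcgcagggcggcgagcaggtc
These stretches differ at 1 of 150 bases, and the 250 bases before the starts are 98.8% identical.

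The Hspb1 stretch is shown because it carries 2 separate pairs of units, in capitals, in a gene whose level varied strongly between libraries.
Hspb1, chr5:135887789-135887848, plus strand: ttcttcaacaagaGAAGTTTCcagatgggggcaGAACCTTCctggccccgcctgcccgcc

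Levels are given in FPKM, reads scaled by gene length and by a library constant, so genes can be compared with each other. Hspa8 was the most abundant of the 10 in every library (124 to 360.0 FPKM). Hsp90aa1 (29.6 to 93.1 FPKM), Hspd1 (32.7 to 100.02 FPKM) and Hspe1 (17.6 to 96.8 FPKM) followed and overlapped one another. Hspb1 (6.98 to 40.1 FPKM), Hsph1 (4.32 to 14.5 FPKM) and Dnajb1 (5.12 to 8.78 FPKM) were lower. Hspa1b (1.30 to 24.0 FPKM), Hsf1 (1.56 to 4.07 FPKM) and Hspa1a (0.308 to 6.38 FPKM) had low values that overlapped, and Hspa1b had a lower mean than Hsf1 in ground controls (1.96 against 2.89 FPKM) and higher means in the other groups. The kidney thus held far more of the constitutive Hsp70 transcript than of both inducible ones: the ratio of Hspa8 to Hspa1b ran from 6.41 in HU1 to 220.1 in GC3.

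**Figure D1:**
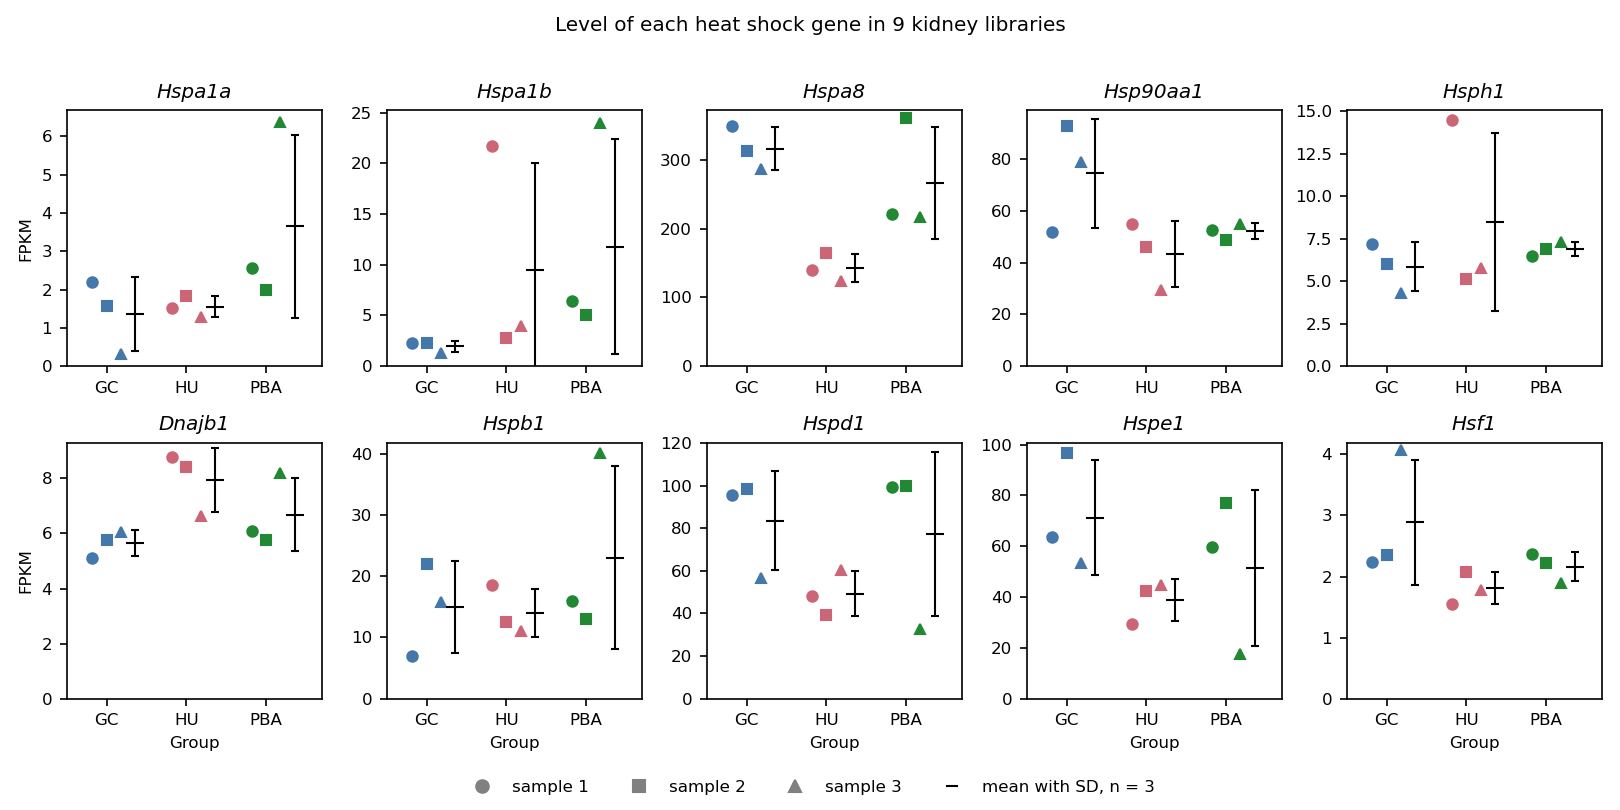
Level of each of the 10 genes in FPKM (vertical axes, linear, starting at 0) by group (GC ground control, HU unloaded with vehicle, PBA unloaded with 4-PBA). Each symbol is 1 library, and the bar beside each group is the mean with SD of 3 samples, cut at 0 where it reaches below (Hspa1b in HU). Hspa8 sits between 124 and 165 FPKM in the unloaded libraries and between 217 and 360.0 FPKM in the other 6.

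In unloaded mice against ground controls, 1 of the 10 genes changed: Hspa8, the constitutive Hsp70, fell to 0.451 of the ground control mean. The other 9 did not pass the test. Among all 12642 genes tested, 10.2% passed (limma on log2(FPKM + 1), Benjamini-Hochberg adjusted p under 0.05), so the share among the heat shock genes was that of the background. Falls made up 4.90% of all genes tested. Groups did not overlap for 5 of the 10 genes (Hspa1b and Dnajb1 higher, Hspa8, Hspe1 and Hsf1 lower in unloaded mice), and for 37.7% of all genes tested (18.3% higher and 19.4% lower). The median log2 difference over the 10 genes was -0.22, beside -0.03 over all genes tested.

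In 4-PBA-treated against vehicle-treated unloaded mice, 0 of 10 genes passed, against 2.69% of all genes tested. By limma, 1 of the 10 (Hspa8) was below 0.05 before adjustment, as were 20.1% of all genes tested, and limma-voom, run on the recovered reads, called 0 of the 10. Hspa8 and Hspa1a were higher in all 3 treated libraries than in all 3 unloaded ones, and groups did not overlap for 20.3% of all genes tested (10.1% in that direction). The median log2 difference was 0.38 over the 10 genes and 0.02 over all genes tested. Both comparisons use the same 3 unloaded libraries.

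In 4-PBA-treated mice against ground controls, 0 of 10 genes passed, and 0% of all genes tested did. By limma, 2 of the 10 (Hspa1a and Hspa1b) were below 0.05 before adjustment, as were 1.31% of all genes tested, and limma-voom called 0. Groups were apart for Hspa1b, higher in treated mice, and for 8.00% of all genes tested (4.37% in that direction). The median log2 difference was -0.02 over the 10 genes and -0.00 over all genes tested. The half-width of the 95% confidence interval had a median of 0.87 over the 10 genes. These intervals are not adjusted for the number of genes tested, so a difference had to exceed its half-width to pass. Exceeding it was not enough: the interval of Hspa1b here was 0.25 to 3.40. All p-values set a group difference against the spread between these samples, moderated over all genes tested. That spread may in part be technical.

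**Figure D2:**
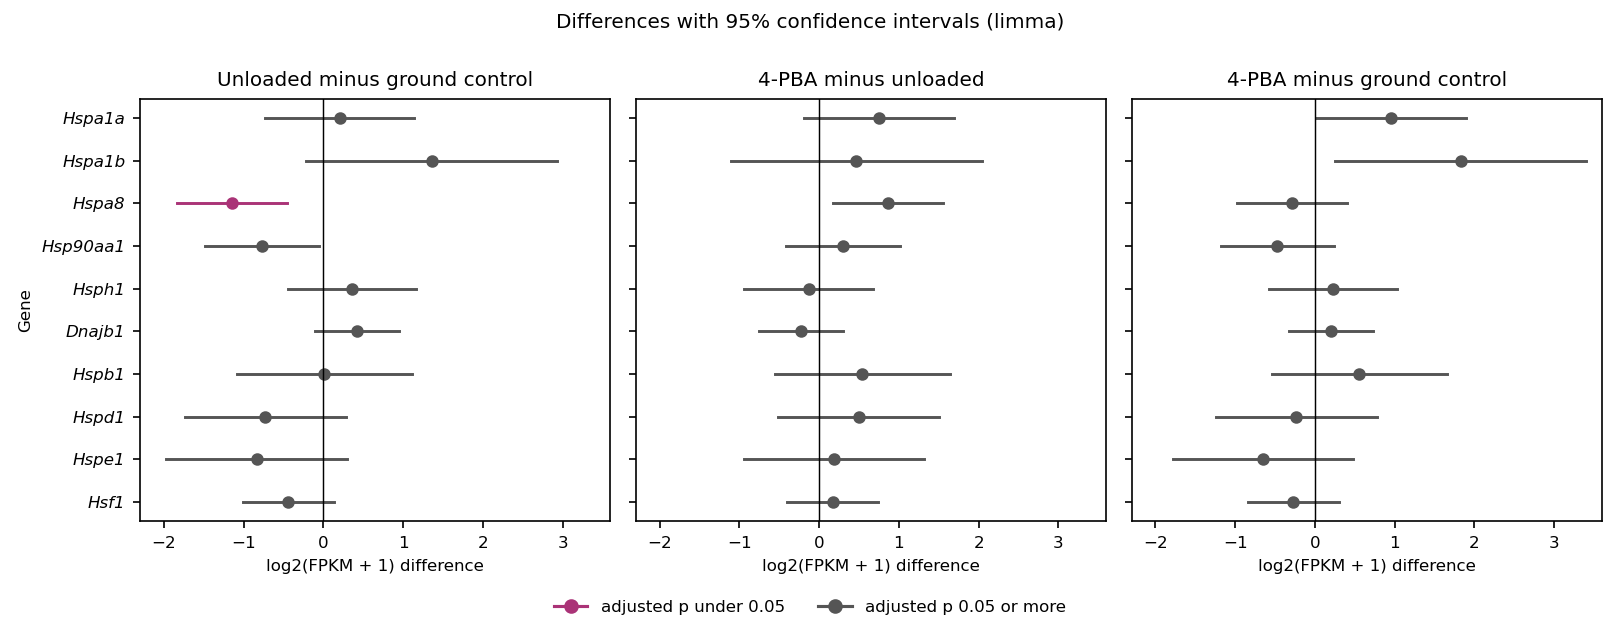
Difference in log2(FPKM + 1) for each gene (horizontal axis) in the 3 comparisons, with 95% confidence intervals from limma on 3 samples per group. The interval of Hspa8 in unloaded minus ground control (-1.83 to -0.46) is the one drawn in colour as past the threshold.

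Hsf1 (ENSMUSG00000022556; mm10 chromosome 15, 76477422 to 76501913, plus strand) encodes the master regulator of the response, which is controlled mainly at the protein level. Its values were 2.24, 2.36 and 4.07 FPKM in ground controls GC1 to GC3, 1.56, 2.08 and 1.79 FPKM in HU1 to HU3, and 2.36, 2.22 and 1.90 FPKM in PBA1 to PBA3. All unloaded libraries were below all ground controls, with GC3 well above the rest, while treated and unloaded mice overlapped. HU2 rested on 46 reads and lay close to GC1 (309 reads), so that separation is imprecise. The log2 difference of unloaded minus ground control was -0.44 ± 0.25 (SE), with an interval of -1.01 to 0.13 (limma adjusted p = 0.271). Differences at this low level are understated on the log2(FPKM + 1) scale. With 4-PBA against vehicle the log2 difference was 0.17 ± 0.25 (SE; interval -0.40 to 0.74; limma adjusted p = 0.744).

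Hspa1b (ENSMUSG00000090877; chromosome 17, 34956436 to 34959238, minus strand) encodes the inducible Hsp70, the classical readout of heat shock. Its values were 2.31, 2.26 and 1.30 FPKM in ground controls GC1 to GC3, 21.7, 2.75 and 3.94 FPKM in HU1 to HU3, and 6.39, 5.01 and 24.0 FPKM in PBA1 to PBA3. Each of the 6 libraries of unloaded mice, treated or not, was above each ground control, but HU1 and PBA3 were several times above the other 4. HU2, the lowest of the 6, rested on 24 reads and lay close to GC1 (126 reads), so that separation is imprecise. Unloaded minus ground control was a log2 difference of 1.36 ± 0.70 (SE; interval -0.21 to 2.93; limma adjusted p = 0.225). Without HU1 it was 0.56 (limma adjusted p = 0.543), so 1 library supplied most of that difference. With 4-PBA against vehicle it was 0.47 ± 0.70 (SE; interval -1.11 to 2.04; limma adjusted p = 0.750), and it changed sign to -0.17 without PBA3. The log2 difference of 4-PBA-treated mice minus ground controls was 1.83 ± 0.70 (SE; interval 0.25 to 3.40; unadjusted p = 0.0273, limma adjusted p = 1.000). It was 1.19 without PBA3.

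Hspa1a (ENSMUSG00000091971; chromosome 17, 34969190 to 34972156, minus strand) is the neighbouring copy and encodes nearly the same protein. Its values were 2.20, 1.58 and 0.308 FPKM in ground controls GC1 to GC3, 1.52, 1.84 and 1.29 FPKM in HU1 to HU3, and 2.56, 2.00 and 6.38 FPKM in PBA1 to PBA3. Ground controls and unloaded mice overlapped, and the 3 treated libraries were above the 3 unloaded ones. These levels rest on 10 reads in GC3, on 17 to 27 reads in the unloaded libraries and on at most 190 reads (PBA1). The log2 difference was 0.20 ± 0.42 (SE; interval -0.74 to 1.14; limma adjusted p = 0.782) for unloaded minus ground control. It was 0.75 ± 0.42 (SE; interval -0.19 to 1.69; limma adjusted p = 0.346) for 4-PBA minus vehicle, and 0.36 without PBA3. Treated mice minus ground controls gave 0.96 ± 0.42 (SE; interval 0.02 to 1.90; unadjusted p = 0.0467, limma adjusted p = 1.000).

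The ratio of Hspa1b to Hspa1a ranged from 1.05 in GC1 to 14.2 in HU1. Both coding sequences are 99.4% identical (1918 of 1929 aligned bases), while the sequences after the stop codon are 48.1% identical, so reads from the coding part could have been divided between the copies in a way the table does not show. Hspa1a also overlaps Gm20481 on the opposite strand over 2225 bases. The libraries keep the strand, but no source used here says whether the counting used it. Both values are therefore uncertain as levels of 1 gene each.

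Hspa8 (ENSMUSG00000015656; chromosome 9, 40800984 to 40810087, plus strand) encodes HSC70, the constitutive Hsp70 that folds new proteins, uncoats clathrin vesicles and serves chaperone-mediated autophagy. Its values were 349.8, 312 and 287 FPKM in ground controls GC1 to GC3, 139, 165 and 124 FPKM in HU1 to HU3, and 221, 360.0 and 217 FPKM in PBA1 to PBA3. The unloaded libraries were the 3 lowest of all 9, below every ground control and every treated library. The means were 316 ± 31.6 FPKM in ground controls, 143 ± 20.4 FPKM in unloaded mice and 266 ± 81.5 FPKM with 4-PBA (SD, n = 3 each).

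Hspa8 fell in unloaded mice by 1.15 ± 0.31 on the log2 scale (SE; interval -1.83 to -0.46; limma adjusted p = 0.0451). The adjusted p lay close to the threshold: it was 0.0197 to 0.177 over 19 alternatives, and 12 of them ended the call although the difference stayed negative in all 19. Leaving out any 1 of the 6 ground control or unloaded libraries gave limma adjusted p values of 0.0620 to 0.171. In treated minus unloaded mice the log2 difference was 0.86 ± 0.31 (SE; interval 0.17 to 1.55; unadjusted p = 0.0193, limma adjusted p = 0.165), and in treated mice minus ground controls it was -0.29 ± 0.31 (SE; interval -0.97 to 0.40; limma adjusted p = 1.000).

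GC3 (287 FPKM) and PBA3 (217 FPKM) had mitochondrial shares of 49.7% and 67.1%, above the rest of their groups, and both had more Hspa8 than any unloaded library. Without GC3 and PBA3 the log2 difference of unloaded minus ground control was -1.22 (limma adjusted p = 0.0378). With the mitochondrial share as a covariate it was -0.91, and the call was lost (limma adjusted p = 0.177). Proximal tubule markers were also lower in unloaded mice, and their part in the Hspa8 difference was not tested. The gene contains the small nucleolar RNA genes Snord14c, Snord14d and Snord14e.

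Hsp90aa1 (ENSMUSG00000021270; chromosome 12, 110690605 to 110702728, minus strand) encodes the inducible cytosolic HSP90, which matures kinases and steroid receptors and restrains HSF1. Its values were 51.7, 93.1 and 79.2 FPKM in ground controls GC1 to GC3, 54.8, 45.9 and 29.6 FPKM in HU1 to HU3, and 52.9, 48.8 and 54.8 FPKM in PBA1 to PBA3. GC2 and GC3 stood above all other libraries, and GC1 lay among the unloaded and treated ones. Unloaded minus ground control was a log2 difference of -0.77 ± 0.32 (SE; interval -1.48 to -0.06; unadjusted p = 0.0368, limma adjusted p = 0.141). Treated minus unloaded mice gave 0.30 ± 0.32 (SE; interval -0.41 to 1.01; limma adjusted p = 0.633).

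Hsph1 (ENSMUSG00000029657; chromosome 5, 149614287 to 149636376, minus strand) encodes HSP110, a nucleotide exchange factor that resets Hsp70. Its values were 7.19, 6.03 and 4.32 FPKM in ground controls GC1 to GC3, 14.5, 5.13 and 5.80 FPKM in HU1 to HU3, and 6.47, 6.89 and 7.33 FPKM in PBA1 to PBA3. HU1, the library with the highest Hspa1b among the unloaded mice, was again the one high value, and the rest overlapped. Unloaded minus ground control was a log2 difference of 0.36 ± 0.36 (SE; interval -0.45 to 1.16; limma adjusted p = 0.531), and -0.06 without HU1. Treated minus unloaded mice gave -0.13 ± 0.36 (SE; interval -0.94 to 0.67; limma adjusted p = 0.866).

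Dnajb1 (ENSMUSG00000005483; chromosome 8, 83608193 to 83612653, plus strand) encodes HSP40, which hands clients to Hsp70 and helps to silence HSF1. Its values were 5.12, 5.76 and 6.04 FPKM in ground controls GC1 to GC3, 8.78, 8.42 and 6.63 FPKM in HU1 to HU3, and 6.07, 5.76 and 8.21 FPKM in PBA1 to PBA3. The 3 unloaded libraries were above the 3 ground controls, and PBA3 lay with the unloaded ones. It varied least of the 10 genes, with a highest value 1.72 times the lowest. The log2 difference was 0.42 ± 0.23 (SE; interval -0.10 to 0.95; limma adjusted p = 0.251) for unloaded minus ground control, and -0.23 ± 0.23 (SE; interval -0.75 to 0.30; limma adjusted p = 0.626) for treated minus unloaded mice.

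HU1, which had the highest Hsph1 and Dnajb1 of all libraries, was not high for every stress chaperone. Among genes named here after their values were seen, the small heat shock protein gene Cryab was highest in HU1 (332 FPKM against 67.6 to 205 FPKM in the other 8). Bag3, a co-chaperone that HSF1 induces, was lowest there (2.61 FPKM against 4.66 to 9.20 FPKM), and Hspb6 and Hspb7 were listed at 0. HU1 was also lowest for Dnajc7, Hspa14 and Ppid. It was highest for Bag4 (7.60 FPKM against 2.10 to 3.96 FPKM) and Bag5 (10.9 FPKM against 2.18 to 6.64 FPKM). Hspa4l, Hspbp1, Dnajb6 and Dnajb2 were highest in HU1 too. Immediate early genes, which respond to handling of animals and tissue within minutes, summed to 37.4 to 50.3 FPKM in ground controls, 58.4 to 74.3 FPKM in unloaded mice (70.0 in HU1) and 37.5 to 49.4 FPKM in treated mice (49.4 in PBA3). These genes did not move alike: of 8 tested, 6 had a positive and 2 a negative log2 difference in unloaded minus ground control. Ier2 was lower in every unloaded library (1.27 to 5.83 FPKM) than in any ground control (8.01 to 9.96 FPKM). Egr1 alone supplied 18.3 FPKM of the sum in HU1. Fos, Fosb and Atf3 were listed at 0 in at least 1 library each. The part of these genes in the heat shock gene differences was not tested.

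Hspb1 (ENSMUSG00000004951; chromosome 5, 135887919 to 135889563, plus strand) encodes HSP27, also called HSP25 in mice, a small heat shock protein that holds unfolded proteins and stabilises actin. Its values were 6.98, 22.0 and 15.9 FPKM in ground controls GC1 to GC3, 18.5, 12.5 and 11.0 FPKM in HU1 to HU3, and 16.0, 13.0 and 40.1 FPKM in PBA1 to PBA3. PBA3 was far above the others, and all 3 groups overlapped. The log2 difference was 0.01 ± 0.49 (SE; interval -1.09 to 1.11; limma adjusted p = 0.991) for unloaded minus ground control. It was 0.54 ± 0.49 (SE; interval -0.55 to 1.64; limma adjusted p = 0.570) for treated minus unloaded mice, and 0.07 without PBA3.

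PBA3 and GC2, the highest libraries of their groups for Hspb1, had high levels of marker genes of other tissues. The 5 smooth muscle markers summed to 199 FPKM in PBA3 and to 19.4 to 66.7 FPKM elsewhere, and the 5 urothelium markers to 159 FPKM in PBA3 and at most 77.7 FPKM (PBA1) elsewhere. The 5 adipocyte markers summed to 364 FPKM in GC2, 363 FPKM in PBA3 and 8.00 to 16.8 FPKM in the other 7 libraries. The part of such tissue in the Hspb1 values was not tested.

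Hspd1 (ENSMUSG00000025980; chromosome 1, 55077835 to 55088243, minus strand) encodes HSP60, the barrel of the mitochondrial chaperonin. Its values were 95.6, 98.5 and 56.9 FPKM in ground controls GC1 to GC3, 48.4, 39.4 and 60.3 FPKM in HU1 to HU3, and 99.4, 100.02 and 32.7 FPKM in PBA1 to PBA3. GC1, GC2, PBA1 and PBA2 were nearly equal, and the other 5 libraries lay at or below 60.3 FPKM. Unloaded minus ground control was a log2 difference of -0.73 ± 0.45 (SE; interval -1.74 to 0.28; limma adjusted p = 0.303). Treated minus unloaded mice gave 0.49 ± 0.45 (SE; interval -0.51 to 1.50; limma adjusted p = 0.575).

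Hspe1 (ENSMUSG00000073676; chromosome 1, 55088132 to 55091307, plus strand) encodes HSP10, the lid of the same chaperonin. Its values were 63.8, 96.8 and 53.2 FPKM in ground controls GC1 to GC3, 29.3, 42.5 and 44.6 FPKM in HU1 to HU3, and 59.6, 77.2 and 17.6 FPKM in PBA1 to PBA3. The unloaded libraries were all below the ground controls, and PBA3 was the lowest of the 9. Unloaded minus ground control was a log2 difference of -0.84 ± 0.51 (SE; interval -1.97 to 0.29; limma adjusted p = 0.291). Treated minus unloaded mice gave 0.18 ± 0.51 (SE; interval -0.95 to 1.32; limma adjusted p = 0.867).

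The chaperonin genes overlap by 112 bases at their starts and moved together across libraries. The ratio of Hspe1 to Hspd1 stayed between 0.540 and 1.08, and their log2 levels had the highest correlation of any pair among the 10 genes (Pearson r = 0.88 over 9 libraries, a description over libraries that share the differences in mitochondrial reads). At the other end, Dnajb1 and Hspd1 had an r of -0.87. The cytosolic chaperones did not share 1 relation to the chaperonin: with Hspd1, r was 0.61 for Hspa8, 0.19 for Hsp90aa1 and -0.47 for Hspa1b.

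Both chaperonin genes differed between libraries with a low and a high mitochondrial share. In the 4 libraries with shares of 13.7% to 18.9%, Hspd1 was 95.6 to 100.02 FPKM and Hspe1 59.6 to 96.8 FPKM. In the 5 libraries with 49.7% to 79.3%, Hspd1 was 32.7 to 60.3 FPKM and Hspe1 17.6 to 53.2 FPKM, with no overlap for either gene. The high-share libraries lay below the low-share ones in the same way for 7.80% of all genes tested. The same split separated 3 of 14 further mitochondrial chaperone and protease genes, Hspa9 (87.5 to 100.01 FPKM against 28.2 to 59.0 FPKM), Trap1 (51.0 to 56.1 FPKM against 21.3 to 40.4 FPKM) and Spg7 (12.3 to 14.9 FPKM against 2.59 to 10.3 FPKM). It did not separate Hspa8 or the other 7 heat shock genes. Among the 5 high-share libraries, Hspe1 was 42.5 FPKM in HU2 (79.3%) and 17.6 FPKM in PBA3 (67.1%). The 4 low-share libraries also had more reads outside the mitochondrial genome (10592475 to 12893802 against 1568888 to 5780141). Of the proximal tubule markers, Aqp1 (134 to 173 FPKM against 36.0 to 53.1 FPKM), Cubn, Slc13a3 and Slc22a6 were split in the same way. The markers Slc34a1 (694 FPKM in GC3), Slc5a2, Slc5a12, Lrp2, Slc22a8 and Slc7a13 were not. The part of depth and of cell types was not tested.

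With GC3 and PBA3 left out, unloaded minus ground control was -0.98 for Hspd1 (limma adjusted p = 0.0442) and -1.02 for Hspe1 (limma adjusted p = 0.0707). Treated minus unloaded mice then gave 1.02 for Hspd1 (limma adjusted p = 0.0453) and 0.81 for Hspe1 (limma adjusted p = 0.140). The remaining libraries of each group then differ from the unloaded ones in mitochondrial share too, so group and share cannot be told apart in them. With that share as a covariate over all 9 libraries, the difference of unloaded minus ground control changed sign, to 0.49 for Hspd1 and 0.42 for Hspe1. Neither passed. Within groups the share varied most through GC3 and PBA3, so that fit leans on these libraries.

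**Figure D3:**
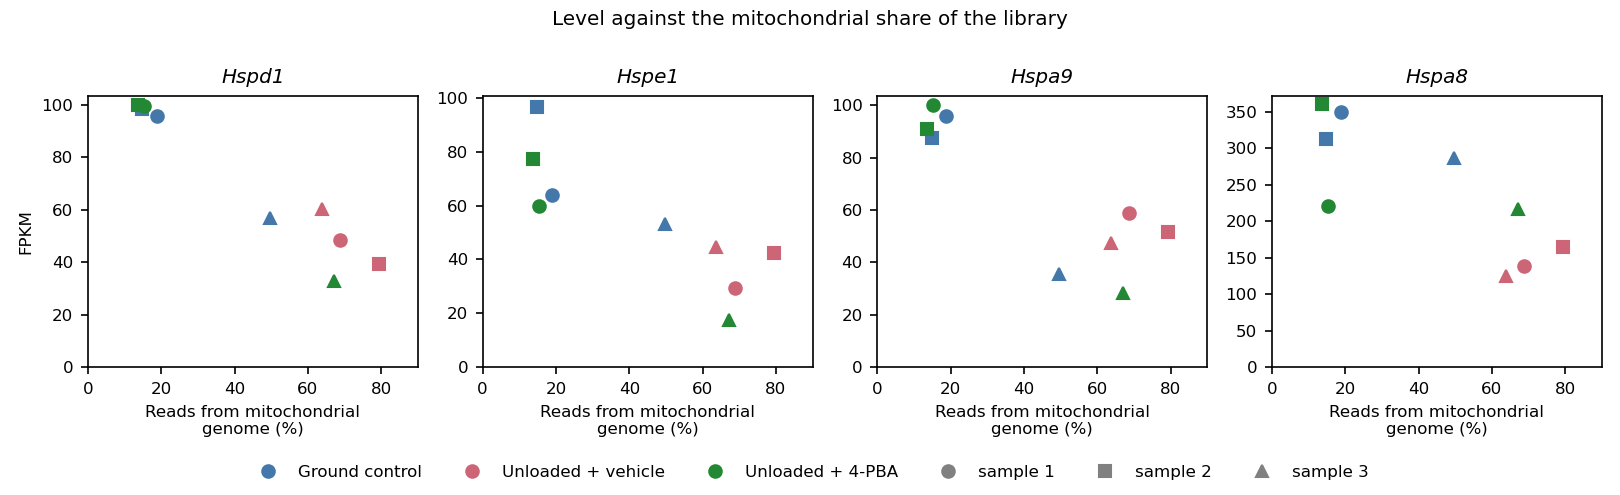
Level in FPKM (vertical axes, linear, starting at 0) against the percentage of a library's reads that came from the mitochondrial genome, for Hspd1, Hspe1, Hspa9 and Hspa8. Each point is 1 of 9 libraries, coloured by group. The 4 libraries under 20% lie above the other 5 for Hspd1, Hspe1 and Hspa9, whereas Hspa8 in GC3 and PBA3 lies above the 3 unloaded libraries.

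Processed pseudogenes resemble the messages they were copied from and can take their reads. The table lists 11 copies that carry the symbol of one of the 10 genes, 5 of Hspd1 and 6 of Hspe1, and 6 of them were at 0 in every library. Of these 11, 2 were high enough to test. Hsp25-ps1, a processed pseudogene on chromosome 13 that bears the other name of Hspb1 and is named here after its values were seen, was a further tested copy. Hspd1-ps3 (ENSMUSG00000058809, on chromosome 11) had 1.13, 1.87 and 1.17 FPKM in ground controls GC1 to GC3, 7.97, 5.22 and 7.11 FPKM in HU1 to HU3, and 2.63, 0.962 and 4.00 FPKM in PBA1 to PBA3. It was higher in every unloaded library than in any other, whereas Hspd1 itself had its lowest mean in unloaded mice. It rose by a log2 difference of 1.70 ± 0.35 in unloaded mice (SE; interval 0.91 to 2.49; limma adjusted p = 0.0225), and treated minus unloaded mice gave -1.22 ± 0.35 (SE; limma adjusted p = 0.102). These values rested on 22 to 77 reads in ground controls, 28 to 83 in unloaded and 38 to 113 in treated libraries. Among all genes tested, 10.2% passed in unloaded against ground control, in either direction.

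Hspe1-ps6 had 0 to 23.2 FPKM in ground controls and unloaded mice, and did not pass in any comparison. In PBA3, where Hspe1 was lowest (17.6 FPKM, 162 reads), this shorter copy was listed at 40.2 FPKM from 71 reads, so its level per length exceeded that of Hspe1. Hsp25-ps1 had 6.11, 0 and 2.81 FPKM in HU1 to HU3, 7.13 FPKM in PBA3, where Hspb1 was highest, and at most 0.435 FPKM in the other 5 libraries. Its log2 difference of unloaded minus ground control was 1.30 ± 0.87 (SE; limma adjusted p = 0.340), and it did not pass in either other comparison. Pseudogenes as a class took 3.73% to 7.54% of reads from nuclear genes in unloaded libraries, 4.83% in PBA3 and 0.955% to 1.76% in the other 5. The part of that share in the Hspd1-ps3 difference was not tested.

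Other chaperones were compared through 4 lists. The 37 further cytosolic chaperones and co-chaperones had 35 tested members, of which limma called 0 in each of the 3 comparisons. At an unadjusted p under 0.05 there were 4 in unloaded against ground control, 1 in treated against unloaded and 0 in treated against ground control, and limma-voom called 0 in each. Over all genes tested, 29.8%, 20.1% and 1.31% were below that value in the same order. The median log2 difference was 0.10 in unloaded minus ground control and -0.00 in treated minus unloaded mice. Hsp90ab1, the constitutive cytosolic HSP90, had 199 ± 39.1 FPKM in ground controls, 154 ± 27.5 FPKM in unloaded mice and 199 ± 36.4 FPKM with 4-PBA (SD, n = 3 each). Bag1, a nucleotide exchange factor of Hsp70, had 175 ± 19.7, 196 ± 17.4 and 178 ± 33.8 FPKM in the same order (SD, n = 3 each). Their groups overlapped, with log2 differences of -0.36 (limma adjusted p = 0.443) and 0.16 (limma adjusted p = 0.727) in unloaded minus ground control.

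The TRiC chaperonin, which folds actin and tubulin in the cytosol, had 8 of 8 subunits tested. By limma 0 passed in any comparison, 0 had an unadjusted p under 0.05, and limma-voom called 0. Its median log2 difference was -0.26 in unloaded minus ground control and 0.16 in treated minus unloaded mice. Cct5 had 30.2 ± 5.18, 26.9 ± 7.04 and 30.8 ± 4.75 FPKM, and Cct2 had 27.1 ± 7.16, 30.2 ± 0.838 and 29.5 ± 7.64 FPKM, in ground controls, unloaded and treated mice (SD, n = 3 each).

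Of 14 further mitochondrial chaperones and proteases, all tested, 1 fell in unloaded mice (4.90% of all genes tested did). This was Clpp, the matrix protease that degrades misfolded proteins, with 50.5, 52.5 and 50.3 FPKM in ground controls GC1 to GC3, 13.4, 31.0 and 21.8 FPKM in HU1 to HU3, and 40.3, 59.2 and 52.6 FPKM in PBA1 to PBA3. All unloaded libraries were below all others. The log2 difference of unloaded minus ground control was -1.25 ± 0.32 (SE; interval -1.96 to -0.54; limma adjusted p = 0.0383), and 9 of 19 alternatives ended the call (limma adjusted p 0.0223 to 0.131). With the mitochondrial share as a covariate the difference was -1.37 and did not pass (limma adjusted p = 0.124). Treated minus unloaded mice gave 1.22 ± 0.32 (SE; interval 0.51 to 1.93; limma adjusted p = 0.0775). In treated against unloaded mice and in treated mice against ground controls, limma called 0 of the 14. In the same order, limma-voom called 1 (Clpp, higher) and 0. Before adjustment, limma put 4 of the 14 below 0.05 in unloaded against ground control, and 1 in each of the other comparisons. Over all genes tested, 29.8% were below 0.05 in unloaded against ground control, 20.1% in treated against unloaded and 1.31% in treated against ground control.

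The median log2 difference of this list was -0.45 in unloaded minus ground control, with 6 of 14 genes lower without overlap (19.4% of all genes tested), and 0.29 in treated minus unloaded mice. The 2 genes of this list with the highest mean over the 9 libraries among those that did not pass, Hspa9 (mortalin, the Hsp70 of the mitochondrial matrix) and Trap1 (the mitochondrial HSP90), had log2 differences of -0.34 (limma adjusted p = 0.695) and -0.72 (limma adjusted p = 0.176) in unloaded minus ground control. Of the other heat shock factors and a binding protein, 3 of 4 were tested. By limma 0 passed in any comparison, 0 had an unadjusted p under 0.05, and limma-voom called 0. Hsbp1, which binds heat shock factor trimers, had 54.7 ± 12.5, 47.1 ± 16.5 and 50.2 ± 12.4 FPKM in ground controls, unloaded and treated mice, and Hsf4 had 0.917 ± 0.989, 1.87 ± 0.908 and 2.72 ± 3.45 FPKM (SD, n = 3 each).

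**Figure D4:**
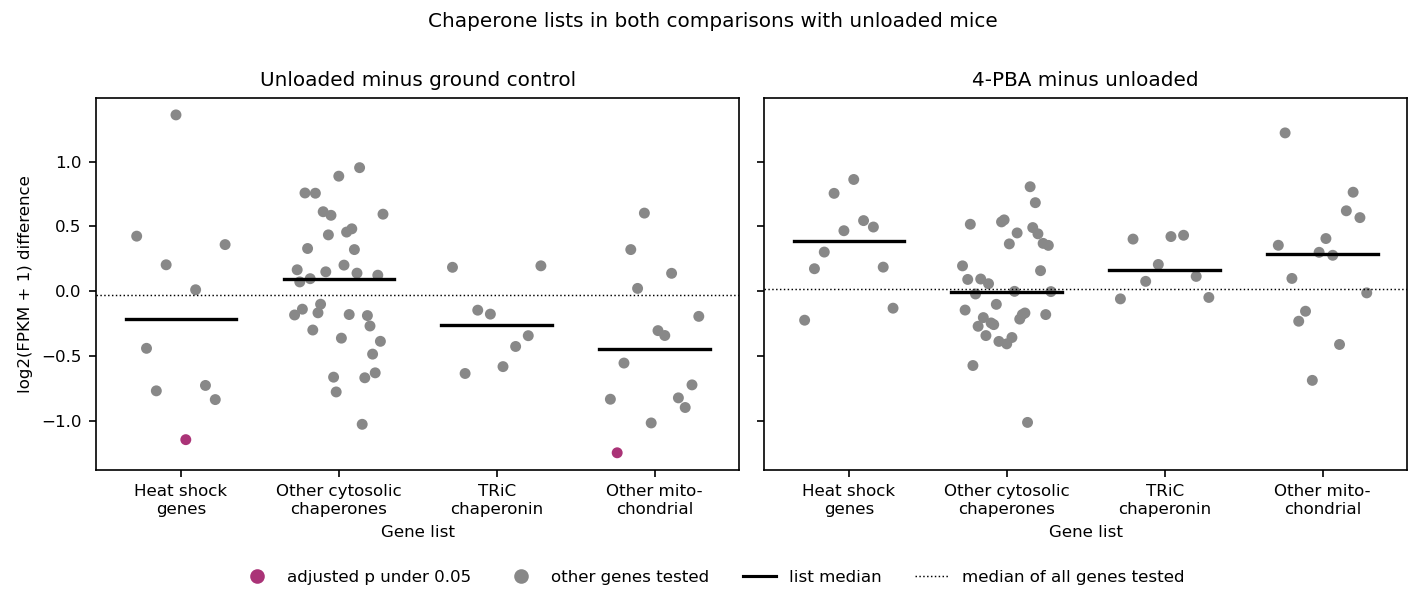
Difference in log2(FPKM + 1) of each tested gene (points) in the 10 heat shock genes and 3 further chaperone lists, for unloaded minus ground control and for 4-PBA minus unloaded, with list medians as bars and the median of all genes as a dotted line. Coloured points passed limma's adjusted threshold of 0.05: Hspa8 and Clpp, both below 0 in unloaded minus ground control.

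The levels of the inducible cytosolic genes Hspa1a, Hspa1b, Dnajb1, Hsph1 and Hsp90aa1 were standardised and averaged, to find genes with a like profile. The averaged genes did not move alike. Hsp90aa1 had an r of -0.19 with Hspa1a, -0.20 with Hspa1b, -0.23 with Dnajb1 and -0.09 with Hsph1. Among the others, r ran from 0.28 (Hspa1a and Dnajb1) to 0.76 (Hspa1b and Hsph1). The averaged profile was highest in PBA3 (1.02) and HU1 (1.01), between -0.69 and 0.01 in the other 7 libraries, and thus set by those 2 samples. The protein-coding genes whose log2 levels were most like it were Tfap4 (r = 0.96), Poldip3 (r = 0.96), Oit1 (r = 0.96), Ctxn1 (r = 0.95) and Atg7 (r = 0.94). These are Pearson correlations over the same 9 libraries, which share depth and mitochondrial share, and are a description only. Tfap4, for example, had 6.13 FPKM in HU1 and 5.43 FPKM in PBA3, and 0.928 to 2.28 FPKM in the other 7.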

How the data were processed

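The authors deposited 1 table of 54532 genes for 9 samples. The submitters' processing notes name the tools HISAT2, cutadapt and CASAVA and the mm10 build. Tool versions, and what counted the reads, were not given in the sources used. The deposited values behaved as reads scaled by gene length and by a library constant, and are called FPKM here. Multiplied by gene length and divided by that constant, 100% were whole reads within 0.01. The constant did not follow the recovered reads in genes. A read per kilobase was worth 0.321 FPKM in HU2 (7595631 reads) and 0.167 FPKM in HU1 (8159090 reads). Scaling to total reads instead reversed some differences, as listed below. Recovered reads gave the depth and were used for an alternative test.

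The 10 genes and all lists were chosen with earlier results of these data known. limma 3.58.1 (R 4.3.3), empirical Bayes with a trend, was fitted on log2(FPKM + 1) of all 9 samples in 3 groups without a block, with Benjamini-Hochberg adjustment over 12642 genes of at least 1 FPKM in at least 3 libraries. The log2(FPKM + 1) scale understates changes of low genes. All 10 genes were described. In each list those passing and up to 2 of the most abundant others were named. Testable numbered copies and the 5 genes most like the averaged profile of the inducible genes were also named. Promoters came from RefSeq (GRCm38.p6), and member coordinates matched GENCODE mouse annotation. Alternatives covered pseudocounts of 0.1 and 4, no filter, 2 other scalings, limma-voom, a mitochondrial covariate, a replicate block, only the samples compared, and samples left out. The code was tested on simulated data. Figures used matplotlib 3.10.9 in Python 3.11.15.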

Additional observations from a re-analysis of the deposited data

How the results depend on the processing

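The differences of the 10 genes, the counts of genes passing and the 4 chaperone lists were recomputed under 19 alternatives. Pseudogene copies (with the Hspd1-ps3 call), cell type markers and correlations are given under the main settings only. Of the 570 values of single genes, 528 kept their direction and their side of the threshold. In unloaded against ground control, 1 of the 10 genes passed, but 0 did with a pseudocount of 4, without the filter, with scaling to reads outside the mitochondrial genome, with the mitochondrial covariate or with the replicate block; 0 to 1 did with 1 sample left out and 2 (Hspa8 and Hspd1) without GC3 and PBA3. In 4-PBA against unloaded, 0 passed, and 1 (Hspd1) without GC3 and PBA3. The causes were not tested. For Hspa8 the adjusted p was 0.0539, 0.102, 0.0545, 0.177 and 0.0653 under those first 5 settings.

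The deposited library constants did not follow the total of recovered reads. Scaling to total reads moved the median of all genes to -0.78 in unloaded minus ground control and 0.71 in 4-PBA minus unloaded. This scaling moved Hspa8 to -2.21 in unloaded minus ground control. In unloaded minus ground control it reversed Hspa1a to -0.45, Hsph1 to -0.54, Dnajb1 to -0.50 and Hspb1 to -0.97, and in 4-PBA minus unloaded Hsph1 to 0.70 and Dnajb1 to 0.62. The mitochondrial covariate reversed Hspa1a to -0.11, Hspb1 to -0.84, Hspd1 to 0.49 and Hspe1 to 0.42 in the former, and Dnajb1 to 0.049, Hspd1 to -0.61 and Hspe1 to -0.95 in the latter. A pseudocount of 4 turned Hspb1 to -0.0086. Without GC3 and PBA3, Hspa1a was -0.18 in unloaded minus ground control, Hspa1b -0.17 in 4-PBA minus unloaded, and Hspd1 0.039 in 4-PBA minus ground control. With each sample left out in turn, the ranges that crossed 0 were -0.18 to 0.47 (Hspa1a), -0.062 to 0.61 (Hsph1) and -0.42 to 0.34 (Hspb1) in unloaded minus ground control. They were -0.17 to 1.26 (Hspa1b), -0.38 to 0.29 (Hsph1) and -0.22 to 0.81 (Hspe1) in 4-PBA minus unloaded, and -0.50 to 0.29 (Hspd1) in 4-PBA minus ground control.

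Among all genes, 1292 passed in unloaded against ground control and 69 to 2360 in the alternatives. In 4-PBA against unloaded 340 passed, and 17 to 1320 in the alternatives. Samples share only a replicate number: same-numbered samples correlated at -0.196 to 0.288, and 2 of 9 samples were closest to their own number. With the replicate block 904 and 137 genes passed, and it changed no other call of the 10 genes. Depth limits the unloaded libraries and PBA3 most, with 1568888 to 3037972 reads outside the mitochondrial genome against 5780141 to 12893802 elsewhere.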
